A study of Mus musculus with 6 samples.

Results

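The genes described here are the matrix metalloproteinases (MMPs), the ADAMTS and ADAMTS-like proteins and the tissue inhibitors of metalloproteinases (TIMPs) in the inguinal fat of mice, a white subcutaneous depot at the groin. They were chosen by name, as protein-coding genes called Mmp with a number, Timp1 to Timp4, or Adamts, and 52 of the 57180 genes in the table met this rule. Of these, 23 encode MMPs, 4 TIMPs, 19 ADAMTS enzymes and 5 ADAMTS-like proteins, and 1, Mmp24os1, met the rule only because it is annotated as a transcript of the strand opposite Mmp24. RNA was sequenced from 3 samples of male wild-type mice whose high-fat diet contained 0.5% hesperidin (HEP) and from 3 of male wild-type mice fed the high-fat diet alone (HFD), for 12 weeks in each group and with 1 batch label throughout. Hesperidin is a flavonoid glycoside of citrus fruit. Both groups ate the high-fat diet, so the comparison concerns the supplement on that diet and not obesity against leanness. The age of the mice is not given in the sources used here, and separate animals are not named for the samples, so p-values measure the spread between these samples, which may be technical.

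MMPs are zinc-dependent proteases that are made as inactive precursors and cut collagens, gelatins, elastin and other matrix proteins once their propeptide is removed. TIMPs bind the active site and block it. ADAMTS enzymes are secreted relatives with thrombospondin repeats that trim procollagens, proteoglycans such as versican and microfibril proteins, while ADAMTS-like proteins have the same accessory domains and no protease domain. In fat, these genes are expressed in large part by stromal progenitors and macrophages, and they remodel the matrix around adipocytes as the tissue expands.

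Levels are given as TPM, a share of each library that is scaled by transcript length and summed to a fixed total, which can therefore be compared between genes. TPM keeps no read depth, so the depth of each library and any counting interval were unknown. Differences are given as HEP minus HFD as log2(TPM + 1), a scale on which changes of low genes are understated, with standard errors (SE) from limma fitted over the 15446 genes whose mean reached 1 TPM. Of the 52 genes, 31 passed that filter on low values.

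The libraries differed in cell content before any comparison by diet. The 12 B and plasma cell markers summed to 1339, 14.5 and 1465 TPM in HEP replicates 1 to 3 and to 12.5, 20.1 and 707 TPM in HFD replicates 1 to 3. HEP replicates 1 and 3 and HFD replicate 3 were thus rich in lymphocyte genes, and the other 3 libraries were low. The 7 markers of lymph node stroma, a tissue embedded in this depot, followed them as a sum, with 1417, 176 and 1479 TPM in HEP and 183, 196 and 1189 TPM in HFD. Most of the sum in the 3 low libraries came from Enpp2, which varied far less. It had 214, 156 and 205 TPM in HEP and 163, 185 and 225 TPM in HFD. The 12 skeletal muscle markers summed to 1485, 12970 and 60.8 TPM in HEP and to 191, 622 and 88.8 TPM in HFD. The 7 liver markers summed to 1187, 4895 and 928 TPM in HEP and to 3422, 2059 and 1382 TPM in HFD. Most of the sum in HEP replicates 1 and 3 and HFD replicates 2 and 3 came from Trf, the transferrin gene, and the 6 others summed to 12.7, 2459 and 85.4 TPM in HEP and to 1619, 56.0 and 106 TPM in HFD. Adipocyte markers were high in all libraries, with sums of 30500 to 49280 TPM in HEP and of 41350 to 52130 TPM in HFD, as the tissue label states.

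TIMPs were the most abundant members, and Timp1 had the largest negative difference of the 31 tested genes. Timp3 (ENSMUSG00000020044), an inhibitor that binds to the matrix and also blocks ADAM and ADAMTS enzymes, had 199, 218 and 132 TPM in HEP and 164, 302 and 191 TPM in HFD. It lay at the 96.4th percentile of tested genes by mean level. Timp2, which with Mmp14 takes part in the activation of the Mmp2 precursor, had 98.2, 135 and 73.3 TPM in HEP and 102, 144 and 82.1 TPM in HFD. Timp4, a secreted inhibitor, had 72.0, 107 and 50.3 TPM in HEP and 78.1, 122 and 67.6 TPM in HFD. For all 3 of these genes replicate 2 was the highest library and replicate 3 the lowest in HEP, and HFD replicate 2 was the highest of all 6, so the groups overlapped widely. Their differences were -0.24 ± 0.30 for Timp3, -0.10 ± 0.30 for Timp2 and -0.24 ± 0.34 for Timp4 (SE, n = 3 per group).

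Timp1 (ENSMUSG00000001131), the inhibitor induced in inflamed and fibrotic tissue, was far less abundant. It had 1.97, 2.70 and 1.87 TPM in HEP and 5.55, 7.43 and 2.33 TPM in HFD. All HEP libraries were low, HFD replicates 1 and 2 were high, and HFD replicate 3 fell inside the HEP range, so the groups overlapped by 1 library. The means were 2.18 ± 0.45 TPM in HEP and 5.10 ± 2.58 TPM in HFD (SD, n = 3 each), and the difference was -0.85 ± 0.39 (SE) with a 95% interval of -1.78 to 0.09. The limma p was 0.0687 unadjusted and 0.879 after Benjamini-Hochberg adjustment over all tested genes, so the difference did not pass. Without HFD replicate 3 it was -1.23, and without HFD replicate 2 it was -0.56. HFD replicate 3 was also the HFD library rich in lymphocyte genes. Among the 3 libraries low in those genes, HEP replicate 2 alone against HFD replicates 1 and 2, the difference was -1.01. Among the 3 rich ones, HEP replicates 1 and 3 against HFD replicate 3 alone, the difference was -0.19. With the B and plasma cell content as a covariate it was -0.55.

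**Figure D1:**
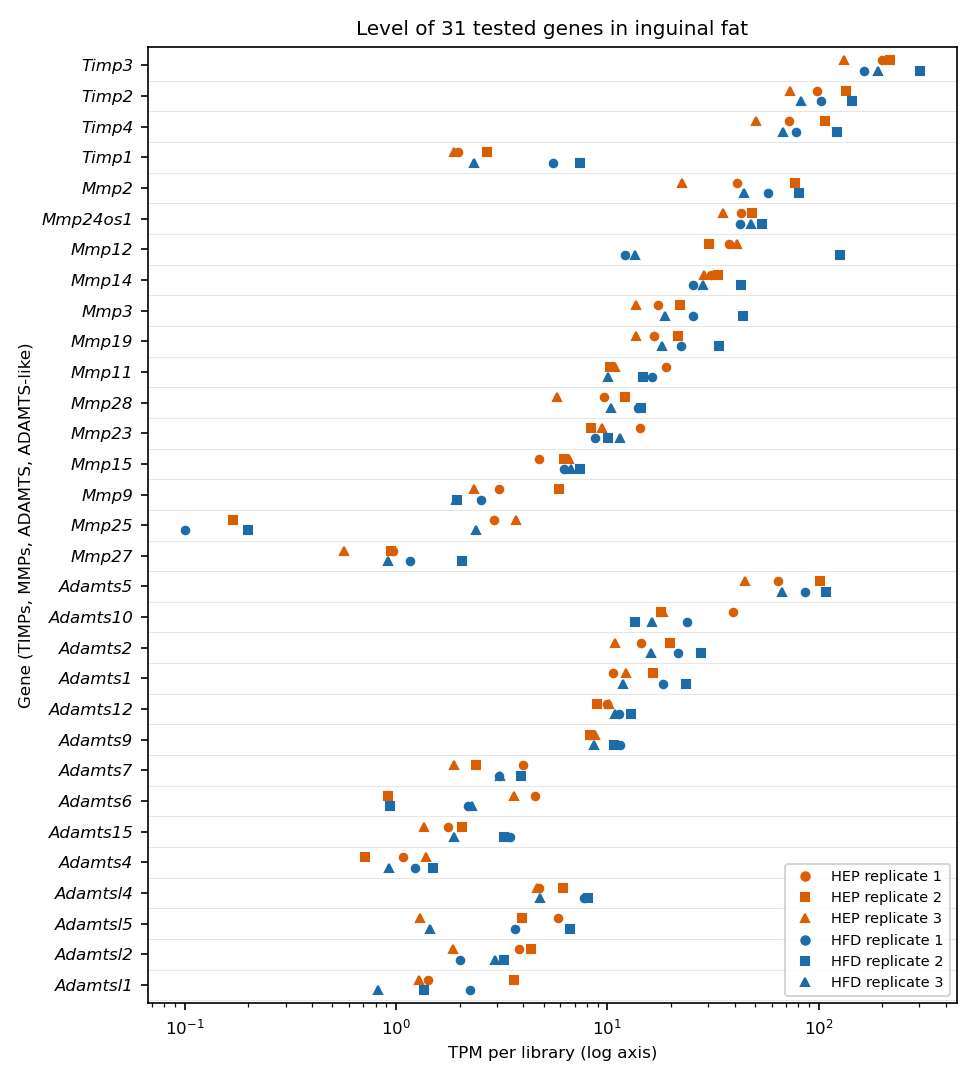
TPM on a log axis for the 31 tested genes, grouped as TIMPs, MMPs, ADAMTS and ADAMTS-like genes and ordered by mean level, with HEP libraries in orange above HFD libraries in blue. Timp3, Timp2 and Timp4 lie between 50.3 and 302 TPM while Timp1 lies between 1.87 and 7.43 TPM, and for all genes but Adamts12 the groups overlap.

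The gelatinases, which digest denatured collagen and basement membrane collagen, differed in level and in the sign of their fitted difference, and neither passed the test. Mmp2 (ENSMUSG00000031740), the gelatinase made by fibroblast-like stromal cells, had 41.2, 77.3 and 22.5 TPM in HEP and 57.3, 81.1 and 44.5 TPM in HFD. HEP replicate 2 lay with the HFD libraries, and HEP replicate 3 was the lowest. The difference was -0.50 ± 0.46 (SE; limma adjusted p = 0.879, n = 3 per group). It was -0.93 without HEP replicate 2, -0.07 without HEP replicate 3 and -0.08 with the B and plasma cell content as a covariate. Mmp9, the gelatinase of neutrophils and macrophages, had 3.08, 5.88 and 2.34 TPM in HEP and 2.51, 1.95 and 1.92 TPM in HFD. HEP replicate 3 lay below HFD replicate 1, and the other HEP libraries lay above all HFD libraries. The difference was 0.54 ± 0.33 (SE; limma adjusted p = 0.879), and without HEP replicate 2 it was 0.24. The neutrophil list does not trace these cells well here: Ly6g was listed at 0 in all 6 libraries and Mpo did not exceed 0.03 TPM in HEP and 0.09 TPM in HFD. The 10 neutrophil markers summed to 37.9, 58.0 and 45.1 TPM in HEP and to 30.3, 56.7 and 48.7 TPM in HFD. Most of the sum came from S100a8, which alone of the 10 was highest in HEP replicate 2, as Mmp9 was. It had 20.1, 49.1 and 23.7 TPM in HEP and 21.6, 43.3 and 25.6 TPM in HFD. Others had other orders, with Ltf highest in HFD replicate 2 and Cxcr2 in HEP replicate 3. The part of neutrophil content in the Mmp9 values was not tested.

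Of the 6 membrane-type MMPs, which are held at the cell surface, 3 were tested. Mmp14, the pericellular collagenase that also activates the Mmp2 precursor, had 30.9, 33.4 and 28.8 TPM in HEP and 25.5, 43.1 and 28.4 TPM in HFD. HEP lay inside the HFD range, and the difference of -0.02 ± 0.22 (SE) had a 95% interval of -0.56 to 0.51. Mmp15 had 4.73, 6.21 and 6.59 TPM in HEP and 6.24, 7.42 and 6.70 TPM in HFD. Mmp25, a glycolipid-anchored MMP of leukocytes, had 2.90, 0.17 and 3.71 TPM in HEP and 0.10, 0.20 and 2.38 TPM in HFD. It was high in the same 3 libraries as the B and plasma cell markers, in which its values were 2.38 TPM or more, and at most 0.20 TPM in the other 3. Its difference was 0.76 ± 0.70 (SE; limma adjusted p = 0.879, n = 3 per group), and 0.03 with the B and plasma cell content as a covariate. In bulk tissue fewer cells of a type and less RNA per cell cannot be told apart.

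Among stromelysins and related enzymes, Mmp12 was far higher in 1 HFD library than in the other 5. Mmp12 (ENSMUSG00000049723), the macrophage elastase, had 37.8, 30.2 and 41.0 TPM in HEP and 12.1, 126.5 and 13.5 TPM in HFD. HFD replicate 2 was higher than every other library and the other HFD libraries were lower than every HEP library. The group means were 36.3 ± 5.54 TPM in HEP and 50.7 ± 65.7 TPM in HFD (SD, n = 3 each), so HEP was lower by its mean TPM, while on the log2(TPM + 1) scale the difference was 0.36 ± 0.87 (SE; limma adjusted p = 0.925). Leaving out HFD replicate 2 gave 1.43, with a limma p of 0.000923 unadjusted and 1.0 adjusted, and the adjusted p over the alternatives for Mmp12 ran from 0.791 to 1.0. Leaving out HFD replicate 1 or 3 turned the direction, to -0.21 and -0.14.

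Of 9 markers of lipid-associated macrophages, the cells that gather around dying adipocytes, 8 were highest in HFD replicate 2 like Mmp12, and Acp5 was highest in HEP replicate 2. Trem2, their lipid receptor, had 9.88, 12.0 and 8.92 TPM in HEP and 7.03, 45.7 and 3.82 TPM in HFD. Gpnmb, a lysosomal glycoprotein, had 22.5, 26.1 and 20.9 TPM in HEP and 13.3, 82.7 and 9.04 TPM in HFD. Atp6v0d2, a proton pump subunit, had 6.28, 6.39 and 7.28 TPM in HEP and 2.99, 22.1 and 2.43 TPM in HFD. As for Mmp12, HFD replicate 2 was the highest and the other HFD libraries lay below all HEP libraries for Gpnmb, Trem2 and Atp6v0d2. These 3 were chosen from the list of 9 after their values were seen. They were the only ones of the 9 with the whole Mmp12 pattern, since for Acp5, Cd36, Spp1, Cd9, Lgals3 and Itgax the other HFD libraries were not both below all HEP libraries. The whole list summed to 2935, 3900 and 2819 TPM in HEP and to 3653, 4748 and 3300 TPM in HFD, most of it from Cd36, which adipocytes also express. The 12 general macrophage markers summed to 490, 418 and 424 TPM in HEP and to 367, 703 and 435 TPM in HFD, again highest in HFD replicate 2. Of these 12, 9 were highest in that library and 3 had the whole Mmp12 pattern. A peak in HFD replicate 2 was not particular to macrophage markers. It was found for 7 of 8 endothelial, 7 of 10 adipocyte and 0 of 12 B and plasma cell markers, against 24.2% of all tested genes. None of the markers on either macrophage list was at 0 in all libraries, and the part of macrophage content in the Mmp12 values was not tested.

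Mmp3, stromelysin 1, which cuts proteoglycans and activates other MMPs, had 17.3, 22.2 and 13.7 TPM in HEP and 25.4, 43.6 and 18.8 TPM in HFD. Only HEP replicate 2 lay above the lowest HFD library. The means were 17.7 ± 4.24 TPM in HEP and 29.3 ± 12.9 TPM in HFD (SD, n = 3 each). The difference was -0.63 ± 0.34 (SE; limma adjusted p = 0.879). It was -0.31 without HFD replicate 2 and -0.37 with the lymphocyte covariate, and its adjusted p over the alternatives did not go below 0.241. Mmp11, stromelysin 3, had 18.9, 10.3 and 10.9 TPM in HEP and 16.2, 14.8 and 10.1 TPM in HFD, a difference of -0.06 ± 0.30. Its exons overlap those of Chchd10 on the other strand, a mitochondrial gene at a mean of 40.3 TPM. No source used here says whether reads were counted by strand, so reads of such overlapping pairs cannot be told apart.

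**Figure D2:**
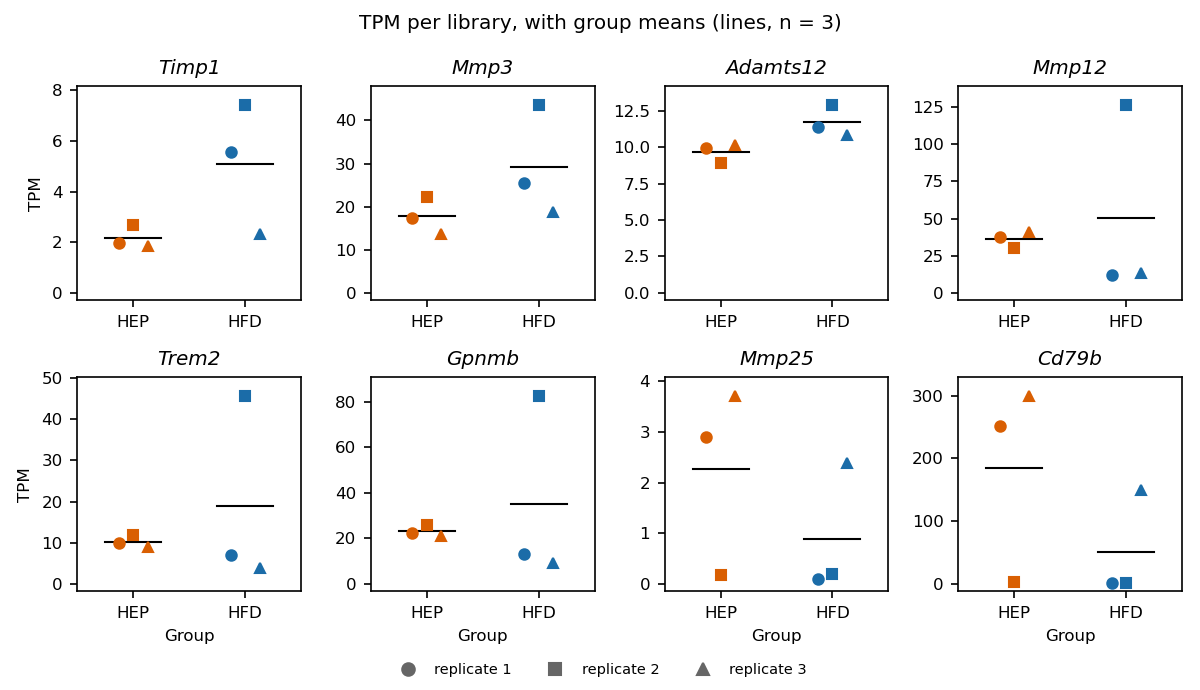
TPM in each library for Timp1, Mmp3, Adamts12, Mmp12 and Mmp25 and for the markers Trem2 and Gpnmb of lipid-associated macrophages and Cd79b of B cells, with HEP left of HFD, symbols for the replicates and lines for the group means (n = 3). Mmp12, Trem2 and Gpnmb share their peak in HFD replicate 2, Mmp25 and Cd79b are high in HEP replicates 1 and 3 and HFD replicate 3, and of the genes drawn Adamts12 alone has groups that do not overlap.

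Mmp12 and Mmp3 belong to a run of 10 MMP genes that are direct neighbours on chromosome 9 in RefSeq's GRCm38.p6 annotation of protein-coding genes. In order the run reads Mmp13, Mmp12, Mmp1b, Mmp3, Mmp1a, Mmp10, Mmp8, Mmp27, Mmp20 and Mmp7. In this fat depot 3 of the 10 reached a mean of 1 TPM: Mmp12, Mmp3 and, barely, Mmp27 with 0.97, 0.95 and 0.57 TPM in HEP and 1.17, 2.06 and 0.92 TPM in HFD. Exons of Mmp1b overlap those of Mmp12 on the other strand in GENCODE M21. Mmp13, the main interstitial collagenase of mice, had 0.46, 0.27 and 0.40 TPM in HEP and 0.29, 1.15 and 0.74 TPM in HFD. Mmp7, matrilysin of epithelia, had 0.63, 0 and 0.35 TPM in HEP and 0, 0 and 0.16 TPM in HFD. Mmp8, the neutrophil collagenase, did not exceed 0.08 TPM in HEP and 0.09 TPM in HFD. Mmp1a, Mmp1b and Mmp10 were listed at 0 in all 6 libraries, and Mmp20, the enamel protease, was listed above 0 in 1 HFD library.

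The promoters of this run are shown because most of its genes share a sequence near their starts while their levels range from 0 to 126.5 TPM. RefSeq windows of 300 bases (250 before to 50 after a gene's start, GRCm38.p6) were available for 36 of the 52 genes, among them all 10 of the run. They were searched for TGANTCA, where N is any base. This includes TGACTCA and TGAGTCA, the usual sites of AP-1, the Fos and Jun factors. It is wider than these, and the match in Mmp20 was TGAATCA. The pattern is its own reverse complement, so a single search covers both strands. It was found in 8 of the 10 genes of the run and in 0 of the other 26 members with a window. The share was 8.97% of the 27025 genes in the table of windows. The run was picked for this match, and its genes are related neighbours, with stretches for Mmp1a and Mmp1b that are much alike. They are not independent draws, so these shares describe the run and are not a test. The first base of the match lay between 35 and 95 bases before the annotated start. Capitals mark the match, and each stretch runs from 10 bases before it to 43 after it in the direction of the gene:
Mmp13 at chr9:7272469-7272528, plus strand: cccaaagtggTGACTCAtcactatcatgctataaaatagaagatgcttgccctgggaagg
Mmp12 at chr9:7347320-7347379, plus strand: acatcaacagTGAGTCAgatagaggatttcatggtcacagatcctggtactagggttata
Mmp1b at chr9:7388070-7388129, minus strand: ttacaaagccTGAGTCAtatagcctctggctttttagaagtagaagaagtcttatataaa
Mmp3 at chr9:7445766-7445825, plus strand: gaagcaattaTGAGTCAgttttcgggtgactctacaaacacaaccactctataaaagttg
Mmp1a at chr9:7464058-7464117, plus strand: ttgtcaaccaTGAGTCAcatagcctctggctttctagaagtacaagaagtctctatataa
Mmp10 at chr9:7502269-7502328, plus strand: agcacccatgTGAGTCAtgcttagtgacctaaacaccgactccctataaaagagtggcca
Mmp20 at chr9:7628126-7628185, plus strand: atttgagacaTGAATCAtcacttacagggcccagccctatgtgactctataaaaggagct
Mmp7 at chr9:7692017-7692076, plus strand: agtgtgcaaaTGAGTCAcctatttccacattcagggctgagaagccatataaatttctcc

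Mmp12 and Mmp3, the abundant genes of the run, and Mmp1a, Mmp1b and Mmp10, which were listed at 0, carry the identical match TGAGTCA. The match was thus present at both ends of the range of levels. Mmp27, the third tested gene, and Mmp8 had no match in their windows. Mmp12 and Mmp7 each have a second window, in which the pattern was not found. A match is a description of the letters and not a measured binding site.

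The remaining MMPs that were tested are secreted or cell-surface enzymes with less defined substrates. Mmp19 had 16.6, 21.6 and 13.6 TPM in HEP and 22.3, 33.7 and 18.04 TPM in HFD, with a difference of -0.47 ± 0.28 (SE). Mmp28, epilysin, had 9.68, 12.1 and 5.79 TPM in HEP and 13.9, 14.5 and 10.5 TPM in HFD, with a difference of -0.49 ± 0.29. In both genes a single HEP library, replicate 2, reached above the lowest HFD library. Mmp23, a membrane-anchored MMP that lacks the usual hemopexin domain, had 14.3, 8.41 and 9.48 TPM in HEP and 8.78, 10.1 and 11.5 TPM in HFD, with no separation of the groups. Exons of Mmp19 overlap those of Tmem198b (mean 7.0 TPM) and exons of Mmp28 those of 1700020L24Rik (mean 15.8 TPM), in each case on the other strand. The adjusted limma p was 0.879 for Mmp19 and Mmp28 and 0.964 for Mmp23. Mmp24os1 had 42.8, 48.5 and 35.2 TPM in HEP and 42.4, 53.8 and 47.7 TPM in HFD, while Mmp24 itself, a membrane-type MMP of neurons, did not exceed 0.03 TPM. Exons of these 2 genes overlap as well.

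ADAMTS proteoglycanases, which cut versican and aggrecan, all had a lower mean in HEP among the 5 of 7 that were tested, by a median of -0.36, and 0 passed the test. The 5 were also lower with median-of-ratios scaling and quantile normalization. Both moved the median of all genes down, with 46% and 57.7% of all genes lower, against 41.4% without them. They could therefore hardly turn a lower gene. Adamts5 (ENSMUSG00000022894), the main aggrecanase of mice and the most abundant protease of all 52 genes, had 64.1, 101 and 44.9 TPM in HEP and 86.3, 108 and 67.4 TPM in HFD. HEP replicate 2 lay among the HFD libraries and the other HEP libraries below them. The difference was -0.36 ± 0.33 (SE; limma adjusted p = 0.879), and it was -0.66 without HEP replicate 2, -0.09 without HEP replicate 3 and -0.06 with the lymphocyte covariate. Adamts1, the neighbour of Adamts5 on chromosome 16, had 10.6, 16.5 and 12.2 TPM in HEP and 18.3, 23.5 and 11.9 TPM in HFD. Adamts9 had 8.32, 8.28 and 8.70 TPM in HEP and 11.4, 10.8 and 8.62 TPM in HFD, so that HEP was narrow and HFD replicate 3 lay inside its range. Adamts15 had 1.77, 2.06 and 1.35 TPM in HEP and 3.46, 3.23 and 1.89 TPM in HFD, again with HFD replicate 3 inside the HEP range, and a difference of -0.48 ± 0.28 (SE; limma adjusted p = 0.879). Adamts4 was the least abundant of the 5.

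Procollagen N-proteinases remove the amino-terminal propeptide of fibrillar collagens. Adamts2, the enzyme for collagens I and III, had 14.5, 19.8 and 10.8 TPM in HEP and 21.7, 27.7 and 16.1 TPM in HFD. HEP replicate 2 alone lay above the lowest HFD library. The means were 15.0 ± 4.50 TPM in HEP and 21.8 ± 5.82 TPM in HFD (SD, n = 3 each). The difference was -0.52 ± 0.29 (SE; limma adjusted p = 0.879). Its adjusted p over the alternatives was lowest, at 0.207, without HEP replicate 2, and with the lymphocyte covariate the difference was -0.27. Adamts14, of the same type, had 0.98, 0.65 and 0.64 TPM in HEP and 0.96, 0.93 and 0.75 TPM in HFD, and Adamts3 had at most 0.10 TPM in HEP and 0.28 TPM in HFD.

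Adamts12 (ENSMUSG00000047497), which is known to degrade cartilage oligomeric matrix protein, was the only one of the 31 tested genes whose groups did not overlap. It had 9.93, 8.93 and 10.2 TPM in HEP and 11.4, 12.9 and 10.8 TPM in HFD, with means of 9.67 ± 0.65 TPM in HEP and 11.7 ± 1.07 TPM in HFD (SD, n = 3 each). That is 1 of 31 genes lower in HEP without overlap, against 3.58% of all tested genes, and 0 of 31 higher without overlap, against 1.88%, so the count was close to the background. The difference was small, -0.25 ± 0.16 (SE), with a 95% interval of -0.65 to 0.14 and a limma adjusted p of 0.879. It was -0.40 among the 3 libraries low in lymphocyte genes, where HEP replicate 2 was the only HEP library. It was -0.10 among the 3 rich ones, where HFD replicate 3 was the only HFD library.

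Adamts10, which binds fibrillin, was the most abundant of the other ADAMTS enzymes, with 39.2, 17.9 and 18.3 TPM in HEP and 23.8, 13.6 and 16.3 TPM in HFD. HEP replicate 1 was high and the other libraries lay together. Its difference was 0.41 ± 0.36 (SE; limma adjusted p = 0.879), and 0.05 without HEP replicate 1. Adamts7, a relative of Adamts12, had 4.0, 2.40 and 1.88 TPM in HEP and 3.07, 3.92 and 3.10 TPM in HFD, and its exons overlap those of Tbc1d2b (mean 10.8 TPM) on the other strand. Adamts6, a relative of Adamts10, had 4.53, 0.92 and 3.63 TPM in HEP and 2.18, 0.94 and 2.28 TPM in HFD. Of the 19 ADAMTS enzymes 10 were tested, and 8 of these had a lower fitted level in HEP, against 41.4% of all tested genes. The count was also 8 with median-of-ratios scaling and quantile normalization, which moved the median of all genes down. Adamts13, the plasma protease of von Willebrand factor, had a mean of 0.13 TPM over all libraries.

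ADAMTS-like proteins, several of which bind fibrillin microfibrils, were low and split in direction. Adamtsl4 had 4.77, 6.19 and 4.63 TPM in HEP and 7.79, 8.13 and 4.78 TPM in HFD, a difference of -0.33 ± 0.26 (SE). Adamtsl5 varied most within the groups, with 5.84, 3.95 and 1.30 TPM in HEP and 3.64, 6.63 and 1.45 TPM in HFD, and replicate 3 was the lowest in each group. Adamtsl2 had 3.82, 4.33 and 1.85 TPM in HEP and 2.00, 3.23 and 2.93 TPM in HFD. Adamtsl1 had means of 2.11 ± 1.32 TPM in HEP and 1.47 ± 0.72 TPM in HFD (SD, n = 3 each). Of the 4 tested, 2 had a lower and 2 a higher fitted level in HEP, and with quantile normalization 3 were lower and 1 higher. The fifth, Adamtsl3, had a mean of 0.88 TPM over the 6 libraries and was not tested.

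Of the 21 genes under the filter, 3 were listed at 0 in every library and 18 had a mean between 0 and 1 TPM. They included all 4 collagenases, which as a class summed to 0.52, 0.30 and 0.48 TPM in HEP and to 0.29, 1.21 and 0.83 TPM in HFD. The highest of the 18 were Adamtsl3, Adamts14 and Mmp17, the last of these a glycolipid-anchored MMP with means of 0.56 ± 0.09 TPM in HEP and 0.57 ± 0.28 TPM in HFD (SD, n = 3 each). Mmp13, described with the run on chromosome 9, reached 1.15 TPM in HFD replicate 2. Those not described elsewhere, Mmp16, Mmp21, Adamts8, Adamts16, Adamts17, Adamts18, Adamts19 and Adamts20, did not exceed 0.92 TPM in HEP and 0.53 TPM in HFD. Without depth, a listed 0 or a low value gives no limit on the true level.

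Across the whole set, the question set by the design, how hesperidin on a high-fat diet changed expression, gave no call. With limma, 0 of 31 genes passed an adjusted p under 0.05 in either direction, as did 0% of the 15446 tested genes higher in HEP and 0% lower. At an unadjusted p under 0.05 the count was 0 of 31, against 0.68% of all tested genes higher and 1.13% lower in HEP. The smallest adjusted p among the 31 was 0.879 and over all genes 0.780. By fitted direction, 23 of the 31 genes were lower in HEP (74.2%) and 8 higher, whereas 41.4% of all tested genes were lower and 58.6% higher. The median difference was -0.24 over the 31 genes and 0.07 over all tested genes. The median half-width of the 95% interval was 0.72 for the 31 genes and 0.65 for all tested genes. Quantile normalization moved the median of all genes by -0.13, after which 25 of 31 members and 57.7% of all genes were lower. Relative to that median the members' median was -0.24, against -0.31 without the normalization.

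**Figure D3:**
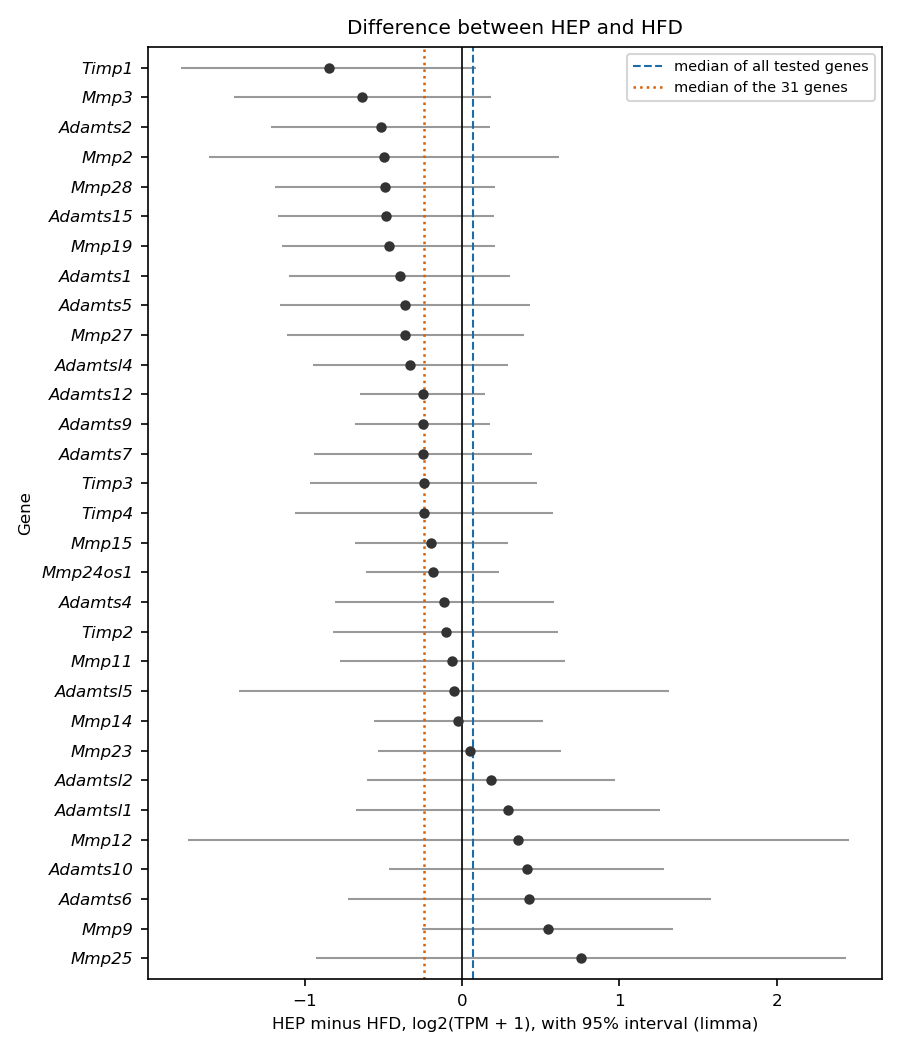
Difference HEP minus HFD on the log2(TPM + 1) scale for the 31 tested genes, with 95% intervals from limma (3 libraries per group), ordered from the lowest to the highest. Each interval includes 0, and the dotted line for the median of the 31 genes (-0.24) lies left of the dashed line for the median of all tested genes (0.07).

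The size of this difference varied with single libraries. HFD replicate 2 was the highest library for 20 of the 31 genes, against 24.2% of all tested genes, and HEP replicate 3 was the lowest for 17, against 28.1%. Without HFD replicate 2, 17 of the 31 genes were lower in HEP and 14 higher (54.8% lower, against 37.2% of all genes), with a median of -0.10 against 0.09 over all genes. Without HEP replicate 3, 18 were lower and 13 higher (58.1% lower, against 34.6% of all genes), with a median of -0.07 against 0.10 over all genes. Relative to the median of all genes the members' median was thus -0.19 without HFD replicate 2 and -0.16 without HEP replicate 3, against -0.31 with all 6 libraries. With the B and plasma cell content as a covariate 20 were lower and 11 higher (64.5% lower, against 51.8% of all genes). The median was then -0.11 against -0.01 over all genes, so that relative to all genes the members' median was -0.099. The sign was the same in the libraries low and rich in lymphocyte genes for 19 of the 31 genes, 14 of them lower in HEP in both (45.2%, against 20.9% of all tested genes) and 5 higher in both. In each such set 1 arm is a single library, HEP replicate 2 among the low and HFD replicate 3 among the rich, so these are values without a test.

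**Figure D4:**
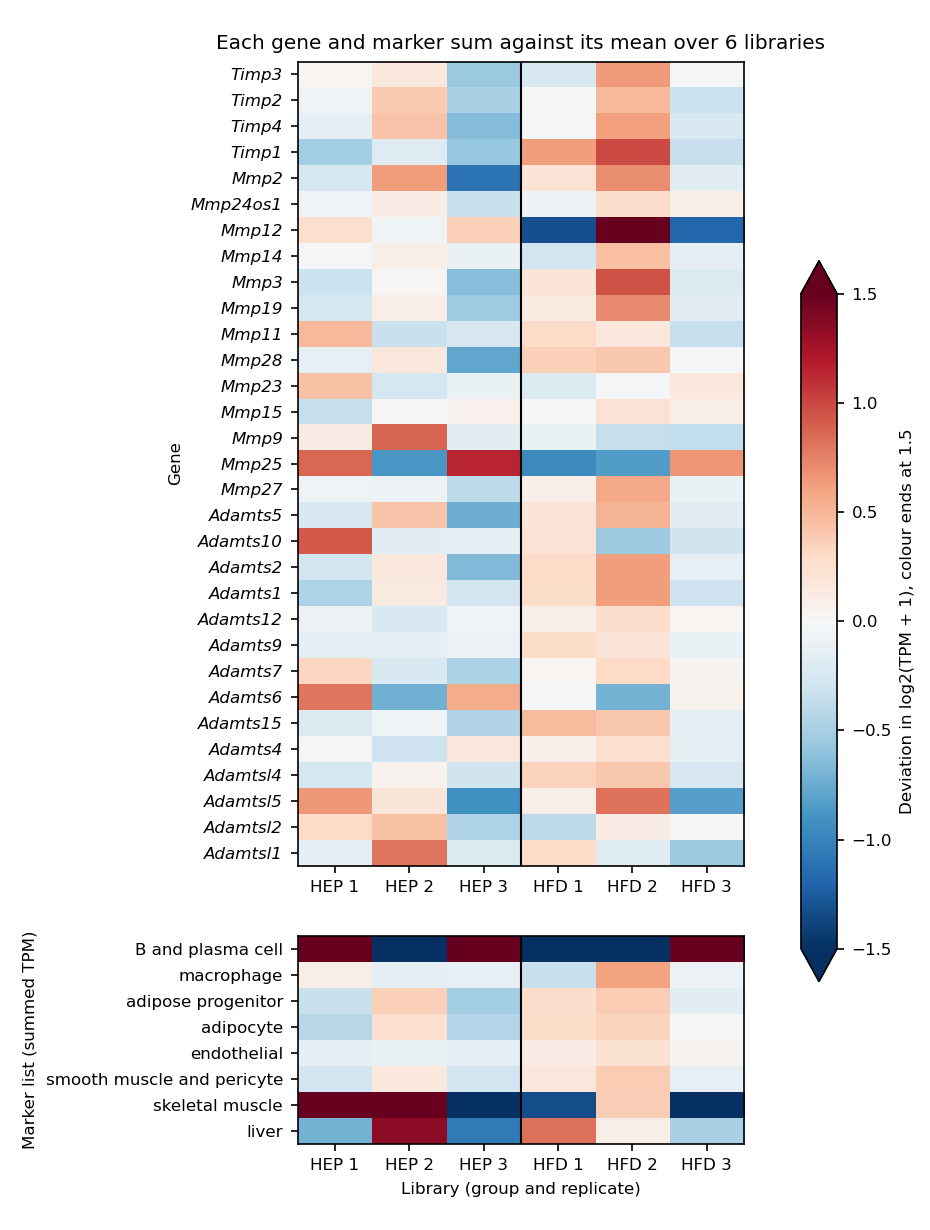
Deviation of each tested gene (upper block) and of the summed TPM of 8 marker lists (lower block) from its mean over the 6 libraries, on the log2(TPM + 1) scale, with the HEP libraries left of the line and the HFD libraries right of it. Most genes are red in HFD replicate 2 and blue in HEP replicate 3 and the B and plasma cell row separates HEP replicates 1 and 3 and HFD replicate 3 from the rest.

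As sums, markers of adipose progenitors, of adipocytes and of Schwann cells and nerve were also lowest in HEP replicate 3 and highest in HFD replicate 2. The sums for smooth muscle and pericytes and for endothelium were highest in HFD replicate 2 but lowest in HEP replicate 1. The 11 adipose progenitor markers, of the fibroblast-like cells that give rise to adipocytes, summed to 1969, 3177 and 1746 TPM in HEP and to 2990, 3238 and 2204 TPM in HFD, with HFD replicate 2 only just above HEP replicate 2. Gene by gene, 8 of the 11 were lowest in HEP replicate 3 and 6 highest in HFD replicate 2, while Pi16, Clec3b and Ly6a were highest in HEP replicate 2, Dpt in HFD replicate 1 and Dpp4 in HEP replicate 1. Of the 11, 9 had a lower fitted level in HEP, by a median of -0.38 over the list, 0 passed the test, and none was at 0 in any library. All 10 adipocyte markers had a lower fitted level in HEP, by a median of -0.44, and 0 passed. They summed to 30960, 49280 and 30500 TPM in HEP and to 50080, 52130 and 41350 TPM in HFD, and 7 of the 10 were lowest in HEP replicate 3 and 7 highest in HFD replicate 2. The 6 Schwann cell and nerve markers summed to 153, 223 and 67.0 TPM in HEP and to 176, 347 and 93.1 TPM in HFD, with Th listed at 0 in all libraries. The 10 smooth muscle and pericyte markers summed to 702, 956 and 703 TPM in HEP and to 965, 1120 and 788 TPM in HFD. The 8 endothelial markers summed to 719, 735 and 725 TPM in HEP and to 866, 932 and 814 TPM in HFD, without overlap between the groups. The part of cell content in the members' values was not tested.

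As sums, enzymes and inhibitors overlapped between the groups for MMPs, TIMPs and ADAMTS enzymes. The 23 MMPs summed to 200.3, 229.6 and 160.4 TPM in HEP and to 192, 381 and 169 TPM in HFD. The 4 TIMPs summed to 372, 462 and 257 TPM in HEP and to 350.1, 576 and 343 TPM in HFD. The TIMP sum was 1.86, 2.01 and 1.60 times the MMP sum in HEP and 1.82, 1.51 and 2.03 times in HFD. The lowest of these ratios, in HFD replicate 2, depended on Mmp12, which alone made up 126.5 of the 381 TPM of MMPs there. ADAMTS enzymes summed to 161, 181 and 116 TPM in HEP and to 185, 208 and 142 TPM in HFD.

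Genes that act on these proteases were read from the same fit. Of 18 activators, receptors and other inhibitors 16 were tested, 13 lower and 3 higher in HEP by fitted level. Of all tested genes 41.4% were lower. The median of the list was -0.25, and 0 passed. Serpine2, an inhibitor of plasminogen activators and thrombin, had 47.5, 75.6 and 37.2 TPM in HEP and 66.0, 96.2 and 74.8 TPM in HFD. Col18a1, the collagen that contains endostatin, had 35.0, 46.3 and 30.2 TPM in HEP and 53.7, 66.5 and 39.1 TPM in HFD. In each of these 2 genes only HEP replicate 2 lay above the lowest HFD library. Plg, the precursor of the MMP-activating protease plasmin and a product of liver, had 0.05, 26.8 and 1.16 TPM in HEP and 19.4, 0.41 and 0.85 TPM in HFD. It was chosen after its values were seen, and its high libraries were those with the most Alb, the albumin gene, at 9.20, 1024 and 39.3 TPM in HEP and 664, 27.5 and 48.8 TPM in HFD.

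Substrates and partners of ADAMTS enzymes were mostly lower in HEP by fitted level. Of 16 genes 13 were tested, 12 lower and 1 higher in HEP, against 41.4% of all tested genes lower. The median was -0.45, and 0 passed over all genes. Col1a1, Col1a2, Col3a1, Col5a1, Fn1, Fbn1, Dcn and Vcan were highest in HFD replicate 2 and lowest in HEP replicate 3. The other tested genes of the list had other orders. Dcn is also on the adipose progenitor list, and the list was not fitted with libraries left out. Fbn1, the fibrillin of microfibrils, had 12.2, 11.1 and 9.30 TPM in HEP and 14.9, 22.8 and 14.1 TPM in HFD. All HEP libraries lay below all HFD libraries, and the difference had a limma p of 0.039 unadjusted and 0.879 adjusted. Vcan, the proteoglycan versican, had 2.62, 2.11 and 1.99 TPM in HEP and 3.87, 5.31 and 2.47 TPM in HFD, with an overlap of 1 library. Groups without overlap and lower in HEP were found for 2 of these 13 genes, Fbn1 and, named after its values were seen, Ncan, against 3.58% of all tested genes.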

How the data were processed

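Gene expression was taken from a table of TPM values per gene for 6 libraries, which the authors deposited together with group means. Per the labels' protocols, TRIzol RNA was made into libraries with a TruSeq RNA kit. HISAT2, StringTie, RSEM, fastp and DESeq2 appear in the submitters' processing notes without role or version. For genome build, annotation release and strand setting, the sources used here give nothing. Each TPM column summed to 999999.71 to 1000000.7, so abundant transcripts lower all others, and read depth was unknown.

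Samples were grouped by title. HEP was compared with HFD on log2(TPM + 1) in limma 3.58.1 (R 4.3.3), with a trend in the variance prior, two-sided, Benjamini-Hochberg adjustment over 15446 genes whose mean reached 1 TPM and a threshold of 0.05. The script was tested on simulated data. Named genes were Timp1, Mmp2 and Mmp12, the 3 most abundant of each class with a tested member, the 8 with the smallest p, and those whose groups did not overlap. In the lists of partner genes the 2 with the smallest p were named. Other genes were described for completeness. The members, classes and lists were chosen with earlier results of these data known. Libraries low and rich in lymphocyte genes were told apart at the middle of the range of the mean B and plasma cell marker level. Same-numbered replicates were not paired in the main fit. Their deviations from the group means correlated at -0.355, 0.368 and 0.651 for numbers 1 to 3. These values cannot show whether the numbers mark pairs, since the libraries also differed in lymphocyte genes. Overlapping genes were looked up in GENCODE M21, in which all 52 IDs were found, and exons of 10 of the 31 tested genes overlap another gene on the other strand. Alternatives are given in the closing section.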

Additional observations from a re-analysis of the deposited data

How the results depend on the processing

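Under 14 alternatives (quantile normalization or median-of-ratios scaling, a pseudocount of 0.1, no filter or one at a mean of 5 TPM, the replicate block, robust empirical Bayes, a lymphocyte covariate and leaving out each library) 0 of the members passed the threshold. Over all genes 0 passed, except without HEP replicate 2, where 1 did, so leaving out a library gave 0 to 1. Without HEP replicate 2, 3683 of the 15446 genes and 5 of the 31 members had an unadjusted limma p under 0.05. The median over the 27 tested named genes was -0.24 and ran from -0.32 to -0.07 when a library was left out. With the replicate block, 0 members and 0 genes passed at the same median of -0.24. There 4 of the 31 members and 576 of the 15446 genes had an unadjusted limma p under 0.05. Whether the replicate numbers pair the samples is not known. The direction held for 18 of the 27 named genes in all alternatives. It turned with quantile normalization for Adamtsl2 (-0.013) and Mmp23 (-0.11), and with the lymphocyte covariate for Adamtsl5 (0.27), Mmp14 (0.051), Mmp23 (-0.10), Timp2 (0.15) and Timp4 (0.042). Leaving out a library gave -0.48 to 0.39 for Adamtsl5, -0.32 to 0.088 for Mmp11, -0.21 to 1.43 for Mmp12, -0.17 to 0.20 for Mmp14, -0.16 to 0.19 for Mmp23, -0.32 to 0.11 for Timp2, -0.43 to 0.012 for Timp3 and -0.52 to 0.020 for Timp4. The cause was not tested. TPM gives no depth, so values under 1 TPM cannot be told from sampling noise.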

Other observations

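ADAM and astacin proteases, relatives of these enzymes that shed membrane proteins or mature procollagens, showed no common direction. Of 13 genes 11 were tested, 6 lower and 5 higher in HEP by fitted level, against 41.4% of all tested genes lower. The median was -0.0032, and 0 passed in limma, with 0 at an unadjusted p under 0.05. Adam9, a membrane-anchored sheddase, had 45.5, 49.8 and 42.0 TPM in HEP and 52.9, 63.3 and 45.5 TPM in HFD. Adam17, the enzyme that releases tumour necrosis factor, had 27.1, 15.2 and 25.1 TPM in HEP and 13.6, 17.7 and 20.0 TPM in HFD. It was highest in HEP replicates 1 and 3 and HFD replicate 3, the libraries with the most B and plasma cell transcripts. Adamdec1, an ADAM-like protease of immune tissue chosen after its values were seen, had 2.08, 0.11 and 2.04 TPM in HEP and 0.13, 0.08 and 0.67 TPM in HFD, with the same 3 libraries highest.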
